A study of Mus musculus with 6 samples.

Results

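Heat shock proteins and cytosolic chaperones were compared between J110 and SSM3, a pair of mouse mammary tumour cell lines. The members were the protein-coding genes of the mouse annotation whose symbols start with Hspa, Hspb, Hspd, Hspe, Hsph or Hsp90a, or with Dnaja, Dnajb, Dnajc or Cct and a digit, without the endoplasmic reticulum chaperones Hspa5, Hsp90b1, Dnajb9, Dnajb11 and Dnajc3. The rule reads symbols and not measured values. It gave 77 of the 52636 genes in the count table, and 62 of the 77 passed the filter on low counts and were tested. Not every member is cytosolic. Hspa9, Hspd1, Hspe1, Dnaja3 and Dnajc15 act in mitochondria, and Hspa13, Dnajc1 and Dnajc10 in the endoplasmic reticulum.

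Chaperones bind unfolded or partly folded proteins, keep them from aggregating and help them reach their folded state. HSP70 works with J-domain proteins, which bring it clients and start its ATPase cycle, and with nucleotide exchange factors such as HSP110, which end the cycle. HSP90 takes over nearly folded clients, the estrogen, progesterone and glucocorticoid receptors among them, together with a set of co-chaperones. Small heat shock proteins hold unfolded clients without ATP, HSP60 with HSP10 folds proteins inside mitochondria, and the ring-shaped CCT complex folds actin and tubulin in the cytosol. Some of these genes are expressed in every cell, and others are induced by stress through the transcription factor HSF1, which binds heat shock elements, alternating repeats of GAA and TTC, in their promoters.

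J110 came from mice with an AIB1 cDNA transgene driven by the MMTV LTR, a promoter active in mammary epithelium, and SSM3 from mammary tumours of 129SvEv mice. Each group was 3 biological replicates of a single cultured line with no treatment, so each line stands for 1 tumour lineage. Both lines grew in DMEM/F12 with serum, insulin and hydrocortisone, but SSM3 medium also held transferrin and β-mercaptoethanol, and serum and CO2 levels differed, so line and culture cannot be told apart. Cells were detached before lysis, and the labels give no age or sex of the mice. RNA was read from 3′ ends (QuantSeq), and because the values come from bulk RNA, a difference in RNA per cell and a difference in the share of cells that express a gene cannot be told apart.

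Total counts were between 4200785 and 5416305 per library, and 3 counts in a library, taken as the floor of detection, came to between 0.578 and 0.668 CPM, the unit in which counts are scaled to a common depth with TMM factors. Intervals and floors given here cover counting error only, since no molecular identifiers are described. Ncoa3, which encodes AIB1, had 110, 106 and 102 counts in J110 and 181, 199 and 186 in SSM3. Transcripts of a cDNA transgene need not carry the 3′ end of mouse Ncoa3, where these reads fall, so its counts do not check the labels, on which each direction below rests. Krt8 and Krt18, keratins of luminal epithelium, were abundant in both lines, while the estrogen receptor Esr1 (log2 fold change 3.48, SSM3 against J110), Cdh1 (8.42), Epcam (9.52) and the progesterone receptor Pgr (11.18) were far higher in SSM3 (edgeR adjusted p between 8.67e-17 and 1.16e-09). Epcam had at most 7 counts, Pgr at most 2 and Cdh1 at most 28 in any J110 library. Leukocyte markers summed to at most 0.425 CPM, erythroid markers to at most 1.34 CPM and fibroblast markers to at most 1.98 CPM in any library. Endothelial markers summed to between 158 and 181 CPM in J110 and at most 0.425 CPM in SSM3, nearly all of it from Cdh5, with Kdr at 8, 11 and 6 counts in J110 and 0 in SSM3, and Tie1 at 0 and Pecam1 at most 4 counts in every library. A locus of ribosomal RNA held 15.05% to 17.16% of J110 counts and 0.779% to 1.27% of SSM3 counts. Genes at a high level in 1 line and near 0 in the other had low counts in every library, in 37 to 62 of 72 genes in J110 (0.115% to 0.326% of the level in SSM3) and in 22 to 47 of 48 genes in SSM3 (0.0933% to 0.397% of the level in J110), most often in J110 replicate 3 and SSM3 replicate 2. The part of these markers, the locus and the low counts in the results below was not tested.

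The promoters of Hspa1a, Hspa1b, Hspb1 and Hspb8, stress-inducible members described below, are shown because HSF1 acts through elements of this region. The sequences are the 250 bases before the annotated start of each gene, from RefSeq on GRCm38.p6, written 5′ to 3′ on the strand of the gene. Capitals mark GAANNTTC or TTCNNGAA, a pair of facing repeats from the heat shock element. Both strings read the same on either strand, and overlapping matches were counted separately. Hspa1a lies at chr17:34969190-34972156 on the minus strand, with its promoter at chr17:34972157-34972406. The promoter of Hspa1b is at chr17:34959239-34959488 on the minus strand, that of Hspb1 at chr5:135887669-135887918 on the plus strand and that of Hspb8 at chr5:116422865-116423114 on the minus strand.
Hspa1a: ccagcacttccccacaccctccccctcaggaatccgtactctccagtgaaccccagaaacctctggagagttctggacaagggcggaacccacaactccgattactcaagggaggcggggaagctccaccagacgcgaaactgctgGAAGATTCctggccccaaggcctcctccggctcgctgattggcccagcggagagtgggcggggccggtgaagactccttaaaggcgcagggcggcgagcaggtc
Hspa1b: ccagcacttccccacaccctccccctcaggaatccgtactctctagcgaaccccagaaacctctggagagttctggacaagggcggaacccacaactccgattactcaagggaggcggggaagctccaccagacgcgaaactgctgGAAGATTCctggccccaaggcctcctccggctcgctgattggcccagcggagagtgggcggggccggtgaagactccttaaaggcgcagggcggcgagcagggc
Hspb1: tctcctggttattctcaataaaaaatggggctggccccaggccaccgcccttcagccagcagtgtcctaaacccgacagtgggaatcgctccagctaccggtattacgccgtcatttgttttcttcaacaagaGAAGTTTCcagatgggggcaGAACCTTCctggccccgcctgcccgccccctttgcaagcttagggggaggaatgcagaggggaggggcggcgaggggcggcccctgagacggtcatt
Hspb8: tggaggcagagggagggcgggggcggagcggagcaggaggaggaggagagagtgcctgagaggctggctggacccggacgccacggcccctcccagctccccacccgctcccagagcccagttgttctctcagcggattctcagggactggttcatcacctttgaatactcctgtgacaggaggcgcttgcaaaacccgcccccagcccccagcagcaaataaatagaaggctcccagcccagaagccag

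The Hspa1a and Hspa1b promoters differed at 3 of 250 bases and each held 1 match, which began 104 bases before the start. The Hspb1 promoter held 2 matches, 117 and 97 bases before the start, and these letters were not in the Hspb8 window. No promoter was available for Hsp90aa1, Hsp90ab1, Hspa8, Hspa9, Cct4 and some other members, so the shares given next leave them out. Over the genome, 14.5% of 27025 genes with a promoter in the table held a match, and 15 of the 49 tested members with a promoter did (30.6%). By the call between the lines described below, these were 6 of 19 members higher in SSM3, 5 of 19 lower and 4 of 11 that passed the threshold in neither direction. Hspe1, which was lower, and Hspd1, which was not called, lie head to head. Their matches are the same letters, which were counted for each gene. Matches were thus present in members that moved either way. They are a description of letters, not of binding, and their part in the changes was not tested.

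Of the 62 tested members, 48 (77.4%) passed an adjusted p threshold of 0.05 in edgeR's quasi-likelihood test with Benjamini-Hochberg adjustment over all 12284 genes tested, 23 with higher and 25 with lower expression in SSM3. The 2 lines differed widely, and 77.9% of all genes tested passed, 38.6% higher and 39.2% lower in SSM3. The members' shares were thus close to the background. The 3 libraries of one line lay entirely above the 3 of the other for 49 members (79%), against 79.6% of all genes. Changes of at least 2-fold were called in 16 members (25.8%) against 43.7% of all genes, and changes of at least 4-fold in 8 (12.9%) against 21.7%. The median log2 fold change, SSM3 against J110, was -0.04 over the members and -0.01 over all genes, and the median size of the change, on either side, was 0.69 and 0.84. With library size in place of TMM scaling the median over all genes moved to 0.16 and the split of the members to 30 higher and 20 lower, so small differences are given relative to the TMM scaling. By name, 6 of 8 tested HSP70 genes were lower in SSM3 and 1 higher, and 16 of 35 J-domain genes were higher and 11 lower. Of the 62, 23 share exons with another annotated gene, and reads from such a pair may not be told apart.

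**Figure D1:**
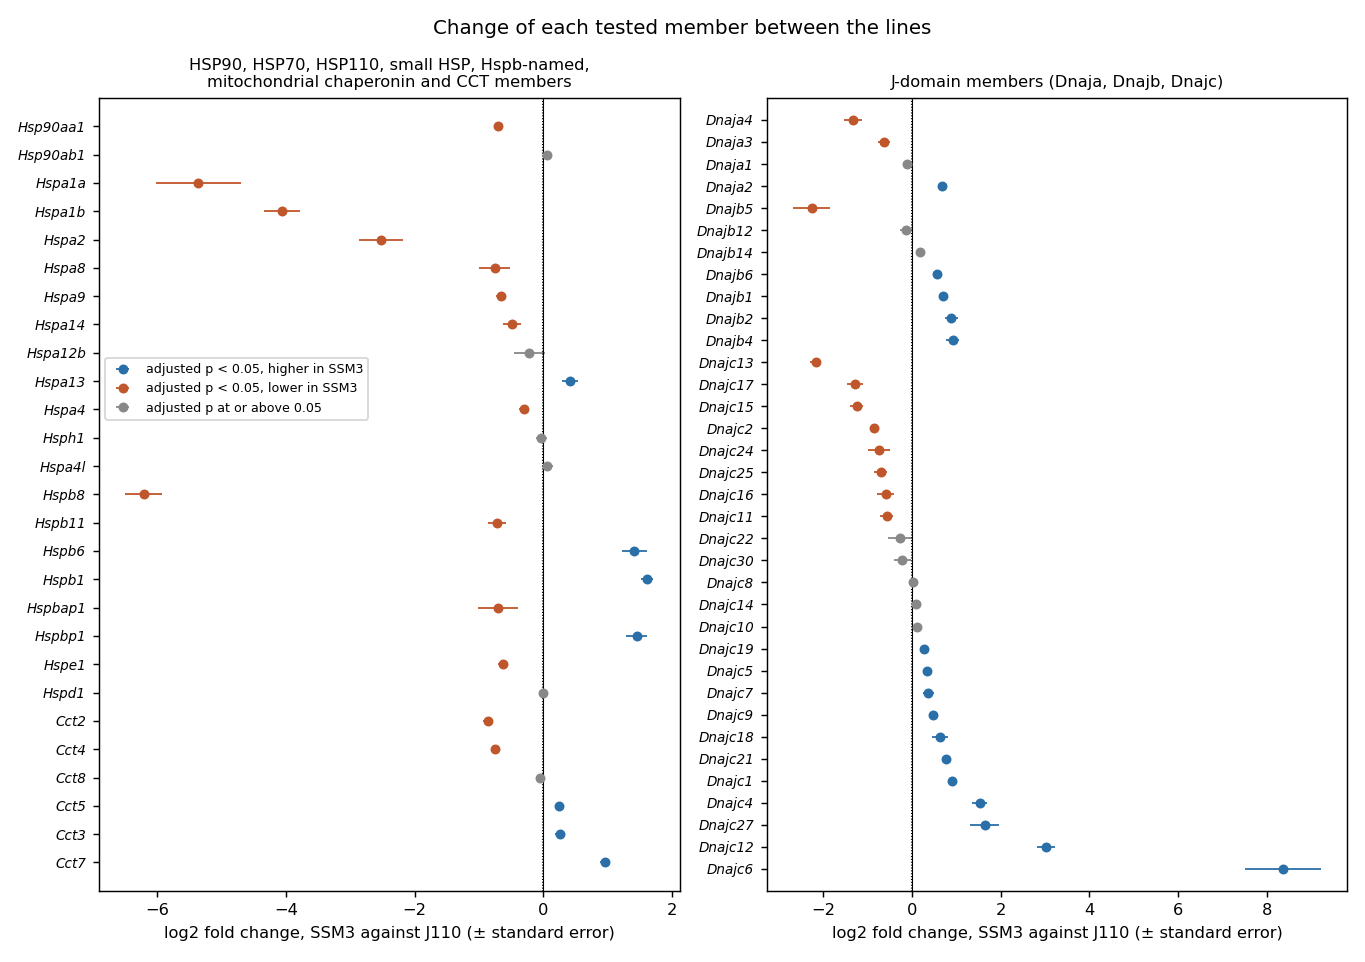
Log2 fold change, SSM3 against J110, of each of the 62 tested members (points; bars are ± 1 standard error from edgeR), by class and then by size of change. Blue marks members that passed the threshold and were higher in SSM3 (23), orange those that were lower (25) and grey the other 14. The solid line is 0 and the dotted line beside it the median of all genes tested. Most points lie within 1 log2 unit of 0, with Hspb8, Hspa1a and Hspa1b far to the left and Dnajc12 and Dnajc6 far to the right. The point of Dnajc6 is a fitted value against 3 libraries at 0 and is no measure of size.

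The members together took 1.144% ± 0.011 of the counts in J110 and 1.243% ± 0.008 in SSM3 (SD, n = 3). Without the ribosomal RNA locus in the total, the shares were 1.365% ± 0.005 and 1.257% ± 0.012, so the direction of this difference turned with the locus. The cytosolic HSP90 genes alone held 39.2% to 39.9% of the members' counts in J110 and 37.8% to 38.7% in SSM3.

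The HSP90 genes parted between the lines. Hsp90aa1, the stress-inducible HSP90α (chr12:110690605-110702728, mm10), was at 1288, 1319 and 1310.0 CPM in J110 and 728, 842 and 842 CPM in SSM3. Every J110 library was above every SSM3 library, and Hsp90aa1 was 1.62-fold lower in SSM3 (log2 fold change -0.70, standard error 0.07, edgeR adjusted p = 1.55e-07). Hsp90ab1, the constitutive HSP90β (chr17:45567775-45573271), was at 3450.4, 3494 and 3617 CPM in J110 and 3679, 3543 and 3767 CPM in SSM3. The lines overlapped for Hsp90ab1, and its difference did not pass the threshold (log2 fold change 0.06, standard error 0.07, edgeR adjusted p = 0.445). With library size only it did, at 0.23 (edgeR adjusted p = 0.0036, where the alternatives ranged from 0.0036 to 1). A ratio within a library does not depend on scaling. The ratio of Hsp90aa1 to Hsp90ab1 counts was 0.373, 0.378 and 0.362 in J110 and 0.198, 0.238 and 0.223 in SSM3, with no overlap between the lines. The mean log2 ratio fell by 0.76 in SSM3 (exact permutation test, two-sided, p = 0.1, the smallest p reachable with 3 against 3).

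The stress-inducible HSP70 genes were near the floor in SSM3. Hspa1b had 88, 76 and 88 counts in the J110 libraries and 3, 6 and 5 in the SSM3 libraries, so even the lowest J110 library was far above the highest of SSM3. By counts per effective library size it was 17-fold higher in J110 (95% counting interval 9.96 to 31.6) and had a log2 fold change of -4.06 (edgeR standard error 0.28, adjusted p = 1.32e-09). Hspa1a, its neighbour on chromosome 17 that encodes nearly the same protein, had 23, 22 and 14 counts in J110 and 1, 0 and 0 in SSM3. The ratio was 55.8 in favour of J110, with a wide counting interval of 9.64 to 2240, since it rests on a single SSM3 count in replicate 1 (log2 fold change -5.36, standard error 0.66, edgeR adjusted p = 1.53e-06). Without that library the SSM3 counts are all 0 and give no ratio. Hspa1a shares exons with Gm20481 on the opposite strand. Hspa1l, the third gene of this cluster, had 8, 0 and 1 counts in J110 and 8, 7 and 17 in SSM3 and was not tested. The lines overlapped for Hspa1l.

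Hspa2, an HSP70 best known from testis, had 33, 36 and 54 counts in J110 and 6, 5 and 9 in SSM3, without overlap. It was 5.76-fold lower in SSM3 (log2 fold change -2.53, standard error 0.35, edgeR adjusted p = 4.71e-06). Hspa9, the HSP70 of the mitochondrial matrix, was abundant and also lower, at 460.2, 456 and 504 CPM in J110 against 299, 293 and 307 CPM in SSM3 (log2 fold change -0.66, edgeR adjusted p = 1.94e-07). Hspa14, a ribosome-associated HSP70 that shares exons with Gm45902, was at 64.5 to 82.9 CPM in J110 and 43.8 to 66.6 CPM in SSM3, with overlap (-0.49, edgeR adjusted p = 0.00384). With library size only, edgeR gave Hspa14 an adjusted p of 0.0578, where the alternatives ranged from 3.41e-05 to 0.705. The HSP70 member that was higher in SSM3 was Hspa13, which sits in the endoplasmic reticulum, at 30.5, 28.3 and 24.6 CPM in J110 and 36.1, 38.0 and 37.2 CPM in SSM3 (log2 fold change 0.41, edgeR adjusted p = 0.00486). Hspa12b, a distant relative of the family, was at 7.12 to 10.9 CPM in J110 and 6.16 to 8.24 CPM in SSM3, which did not pass the threshold (edgeR adjusted p = 0.416). Hspa12a was at 0 in J110 and 4, 3 and 3 counts in SSM3 and was not tested.

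**Figure D2:**
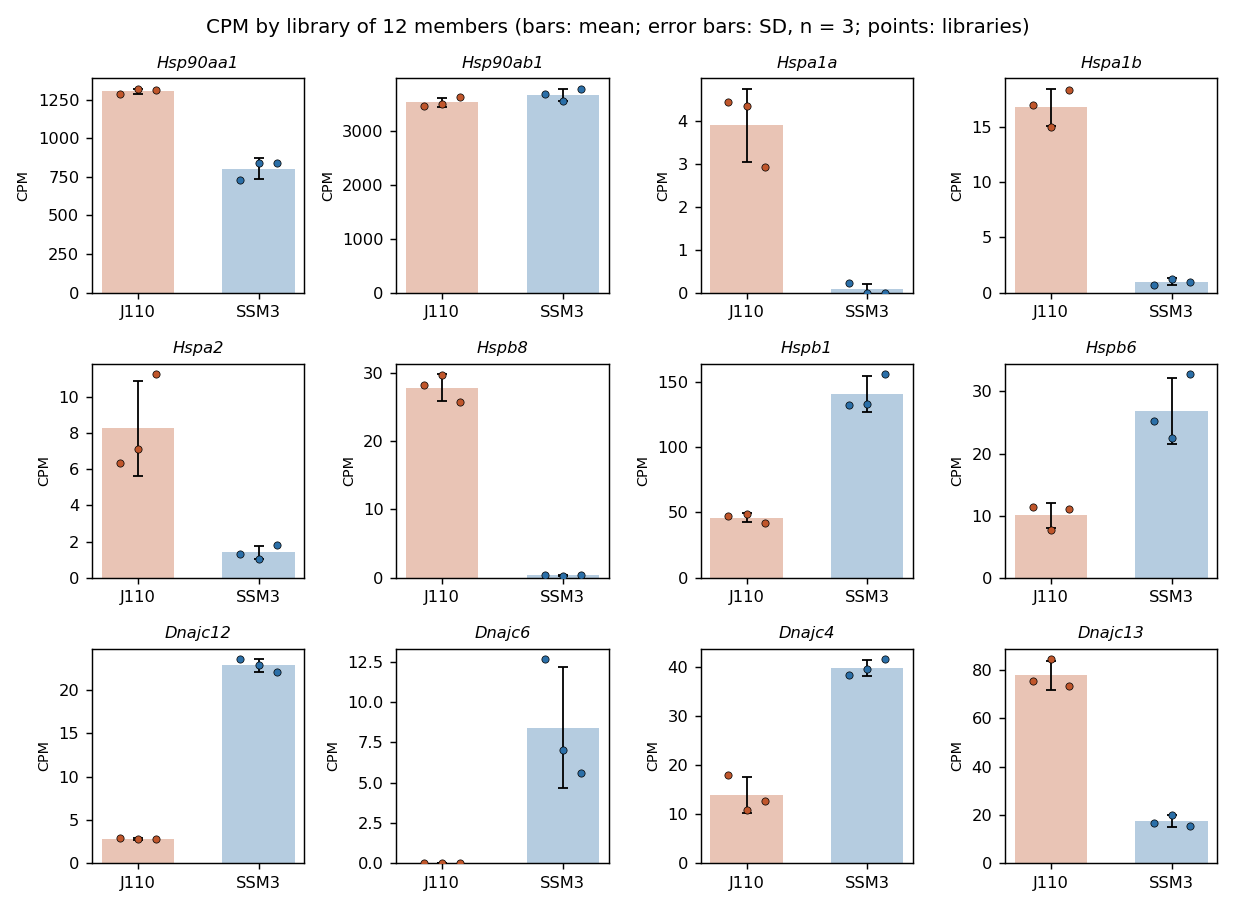
CPM (TMM-scaled, linear axes from 0) of 12 members in each library of J110 (orange) and SSM3 (blue). Bars are means, error bars are SD (n = 3) and points are libraries. Hsp90ab1 is the panel in which the lines overlap, Hspa1a, Hspa1b and Hspb8 are close to 0 in SSM3, and Dnajc6 is at 0 in J110.

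Hspa8, the constitutive HSP70 (HSC70) and ordinarily one of the most abundant chaperones, had 81, 43 and 64 counts in J110 and 38, 30 and 37 in SSM3. These low counts coincide with copies elsewhere in the genome. Of the last 400 bases of the Hspa8 transcript, where 3′ reads fall, 99.8% match other annotated genes at 97% identity or more over at least 75 bases, and 6 other genes hold such a match. The lincRNA Gm26825 (chr5:5781530-5783636), which spans one of these copies, had 2995, 3113 and 2701 counts in J110 and 1918, 1938 and 2236 in SSM3. The pseudogene Gm15459, which lies within it (chr5:5781615-5783555), had 1580, 1610 and 1429 counts in J110 and 815, 853 and 916 in SSM3. The other 4 had at most 3 counts in any library. The 2 genes overlap, so the same reads may count for both, and the count table does not tell which reads came from Hspa8.

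All 3 had lower values in SSM3. Hspa8 itself had a log2 fold change of -0.76 (standard error 0.24, edgeR adjusted p = 0.00828), Gm26825 of -0.45 (standard error 0.07, edgeR adjusted p = 1.25e-05) and Gm15459 of -0.76 (standard error 0.07, edgeR adjusted p = 3.79e-08). Hspa8 lost its call without J110 replicate 1 (log2 fold change -0.57, edgeR adjusted p = 0.0598, where its alternatives ranged from 0.00114 to 0.163), so its value is uncertain. The log2 ratio of Hspa1a plus Hspa1b to Hspa8 counts, with 0.5 added to each sum, was 0.45, 1.18 and 0.67 in J110 and -3.10, -2.23 and -2.77 in SSM3. With the counts of the copies added to Hspa8, it was -5.38, -5.60 and -5.36 in J110 and -9.27, -8.76 and -9.18 in SSM3. Gm26825 and Gm15459 were both added, so the same reads may be in this sum more than once. Whether the inducible genes were above or below Hspa8 in J110 thus turned with the copies, and only the difference between the lines is read here. The ratio was lower in every SSM3 library in both forms and fell by 3.465 without the copies (exact permutation test, two-sided, p = 0.1) and by 3.63 with them. With 5 in place of 0.5 added to each sum, it fell by 2.72 without the copies, and SSM3 had 4 to 6 counts on Hspa1a plus Hspa1b.

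**Figure D3:**
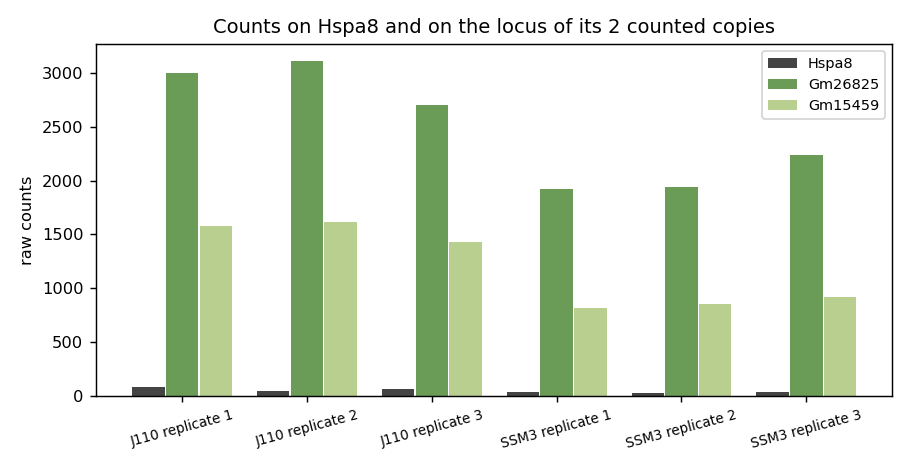
Raw counts in each library on Hspa8 (dark), on the lincRNA Gm26825 (green) and on the pseudogene Gm15459 within it (light green), which lie over the same copy of the Hspa8 3′ end. Hspa8 has 30 to 81 counts per library, while Gm26825 has 1918 to 3113 and Gm15459 815 to 1610.

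The HSP110 genes, which exchange the nucleotide of HSP70, moved little. Hspa4 was at 442, 414 and 449.9 CPM in J110 and 366, 354 and 338 CPM in SSM3, without overlap, and was 1.23-fold lower in SSM3 (log2 fold change -0.30, standard error 0.07, edgeR adjusted p = 0.000694). This call was lost with library size only, at -0.13 (edgeR adjusted p = 0.104, where the alternatives ranged from 0.000163 to 1). Hspa4l, at 74.2 to 76.0 CPM in J110 and 71.7 to 82.4 CPM in SSM3, and Hsph1, the heat-inducible HSP105, at 66.7 to 69.1 and 62.5 to 72.2 CPM, overlapped between the lines. Neither passed the threshold (log2 fold changes 0.07 and -0.03, edgeR adjusted p = 0.494 and 0.787), but Hspa4l did with library size only (0.24, edgeR adjusted p = 0.0185, where the alternatives ranged from 0.0185 to 1).

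Of 8 genes named as small heat shock proteins, 4 were tested, and 2 were higher and 2 lower in SSM3. This was a called share of 100% beside 77.9% of all genes. Hspb8 moved opposite to Hspb1 and Hspb6. Hspb8, which works with BAG3 in the autophagy of misfolded clients, had 146, 150 and 123 counts in J110 and 2, 1 and 2 in SSM3. All SSM3 libraries were below the floor, and the ratio was 79.3 in favour of J110 (95% counting interval 33.7 to 245) (edgeR log2 fold change -6.21, standard error 0.29, adjusted p = 6.84e-12). Bag3 itself was at 59.4 ± 7.18 CPM in SSM3 and 64.9 ± 4.27 CPM in J110 (SD, n = 3), which did not pass the threshold (edgeR adjusted p = 0.256). Hspb1 (HSP25, the mouse HSP27), which binds actin filaments as well as unfolded proteins, went the other way, with 244, 245 and 202 counts in J110 and 592, 627 and 784 in SSM3. It was 3.06-fold higher in SSM3 (log2 fold change 1.61, standard error 0.10, edgeR adjusted p = 2e-10). Hspb6 (HSP20) had 59, 39 and 53 counts in J110 and 113, 106 and 165 in SSM3 and was 2.67-fold higher (log2 fold change 1.42, standard error 0.19, edgeR adjusted p = 3.25e-06), though it shares exons with Lin37 and Proser3. No library of one line overlapped the other for these 3 genes. The search letters stood in the promoters of Hspb1, Hspa1a and Hspa1b printed above and not in the Hspb8 window, and their part in these changes was not tested.

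Hspb11, named with this family but a subunit of the intraflagellar transport complex, was lower in SSM3, at 37.2, 31.4 and 32.8 CPM against 23.2, 20.4 and 18.3 CPM (log2 fold change -0.72, edgeR adjusted p = 0.000138). Hspb2, Hspb3, Hspb7 and Hspb9 had at most 2 counts in any library. Hspb2 shares exons on the opposite strand with Cryab, the small heat shock protein αB-crystallin, whose symbol the rule does not match. Cryab had 807, 783 and 789 counts in J110 and 24, 15 and 10 in SSM3 (log2 fold change -5.51, standard error 0.17, edgeR adjusted p = 2.67e-14), with no overlap. Of 2 other genes with Hspb names, Hspbp1, which exchanges the nucleotide of HSP70, had 174, 161 and 141 counts in J110 and 284, 386 and 571 in SSM3 and was 2.73-fold higher in SSM3 (log2 fold change 1.45, standard error 0.16, edgeR adjusted p = 4.99e-07). The SSM3 libraries were far apart for Hspbp1 but all above J110. Hspbap1, a partner of HSPB1 protein, overlapped between the lines (-0.70, edgeR adjusted p = 0.0492), and its call was lost without any 1 of 5 libraries and held, at -1.20, without SSM3 replicate 1.

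The genes of the mitochondrial chaperonin, Hspd1 (HSP60) and Hspe1 (HSP10), lie head to head on chromosome 1, where their annotated exons overlap. Hspd1 was at 708, 708 and 735 CPM in J110 and 677, 744 and 722 CPM in SSM3, which overlapped, and its log2 fold change of -0.005 (standard error 0.07, edgeR adjusted p = 0.947) did not pass the threshold. With library size only Hspd1 was called higher, at 0.17 (edgeR adjusted p = 0.0237, where the alternatives ranged from 0.0237 to 1). Hspe1 was at 619, 628 and 632 CPM in J110 and 428, 385 and 403 CPM in SSM3. It was lower in every SSM3 library, by 1.55-fold (log2 fold change -0.63, standard error 0.07, edgeR adjusted p = 2.48e-07). Of the last 400 bases of its transcript, 94.8% match 1 other annotated gene, which was not analysed here, and reads from that gene may not be told apart from those of Hspe1.

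The CCT ring, whose subunits are needed together in equal number, did not move as 1 group. Cct2 was at 506, 511 and 493 CPM in J110 and 275, 293 and 263 CPM in SSM3, 1.82-fold lower in SSM3 (log2 fold change -0.86, standard error 0.07, edgeR adjusted p = 6.59e-09). Cct4 was at 519.7, 519.6 and 512 CPM in J110 and 319, 299 and 304 CPM in SSM3 (log2 fold change -0.75, edgeR adjusted p = 2.02e-08). Cct7 went up, from 350.5, 320.4 and 314 CPM in J110 to 686, 566 and 669.8 CPM in SSM3 (log2 fold change 0.96, standard error 0.08, edgeR adjusted p = 1.35e-08). None of these 3 subunits overlapped between the lines. Cct3 and Cct5 were both 1.19-fold higher in SSM3 (log2 fold change 0.25 each, edgeR adjusted p = 0.00217 and 0.00281), also without overlap. Cct8 was at 466 to 486 CPM in J110 and 454 to 483 CPM in SSM3 (-0.05, edgeR adjusted p = 0.535), and part of its 3′ end lies on that of Usp16. Cct8l1 had no count, and Cct6b, a testis form, had at most 2 counts in any library. The alpha subunit Tcp1, whose symbol the rule misses, was at 227, 198 and 236 CPM in J110 and 198, 184 and 176 CPM in SSM3 (-0.25, edgeR adjusted p = 0.0125), and lost its call without J110 replicate 3 (edgeR adjusted p = 0.0526, where the alternatives ranged from 0.00437 to 1) and with library size only, at -0.07 (edgeR adjusted p = 0.454). Cct6a, annotated there as a processed transcript and so no member, had 2226, 2250 and 2107 counts in J110 and 1225, 1381 and 1338 in SSM3 (-0.66, standard error 0.07, edgeR adjusted p = 1.80e-07). Subunits of the same ring thus ranged from -0.86 to 0.96 on the log2 scale, with standard errors under 0.1.

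**Figure D4:**
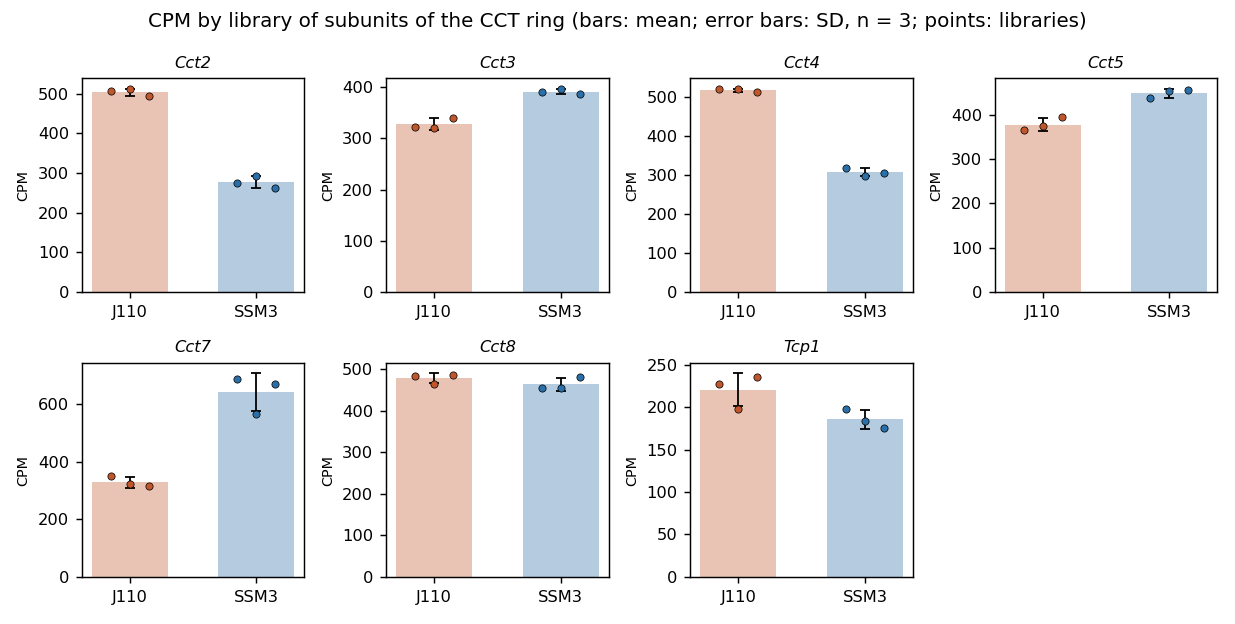
CPM (TMM-scaled, linear axes from 0) in each library of 6 tested CCT members and of Tcp1. Bars are means, error bars are SD (n = 3) and points are libraries. Cct2 and Cct4 are lower in SSM3, Cct7 is higher, Cct3 and Cct5 are slightly higher, Cct8 overlaps and Tcp1 is slightly lower.

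Among the J-domain proteins of class A, which resemble bacterial DnaJ most closely, Dnaja2 was higher in SSM3, at 332, 327 and 323 CPM against 212, 199 and 199 CPM in J110 (log2 fold change 0.69, standard error 0.07, edgeR adjusted p = 1.13e-07). Dnaja1 was at 323, 324 and 314 CPM in J110 and 309, 292 and 295 CPM in SSM3. The lines stood apart narrowly, and its log2 fold change of -0.10 did not pass the threshold (edgeR adjusted p = 0.176). Dnaja3, of mitochondria, was lower in SSM3 (-0.63, edgeR adjusted p = 0.000394), as was Dnaja4, with 90, 102 and 73 counts in J110 and 30, 41 and 29 in SSM3 (-1.32, edgeR adjusted p = 1.43e-05). Each of Dnaja1, Dnaja3 and Dnaja4 shares exons with a gene on the opposite strand.

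In class B, 4 of 7 tested genes were higher in SSM3, 1 was lower and 2 did not pass, a called share of 71.4% beside 77.9% of all genes. Dnajb1 (HSP40), a stress-inducible partner of HSP70, was at 56.3, 58.9 and 58.2 CPM in J110 and 92.9, 96.8 and 92.3 CPM in SSM3, 1.63-fold higher (log2 fold change 0.70, standard error 0.08, edgeR adjusted p = 9.58e-07). It thus moved opposite to Hspa1a, Hspa1b and Hsp90aa1. Dnajb4 (0.93), Dnajb2 (0.89) and Dnajb6 (0.56), which keeps polyglutamine proteins from aggregating, were higher too (edgeR adjusted p = 2.17e-05, 1.94e-05 and 3.78e-06). These 4 were named by a rule that took members without overlap between the lines. Dnajb5 had few counts, 19, 25 and 18 in J110 and 3, 7 and 2 in SSM3, and was lower in SSM3 (log2 fold change -2.25, standard error 0.42, edgeR adjusted p = 0.000113). Without SSM3 replicate 2 its log2 fold change was -2.91, over 1.5 times the fold with all libraries. Dnajb12 and Dnajb14 did not pass (log2 fold changes -0.12 and 0.20, edgeR adjusted p = 0.443 and 0.0905), but Dnajb14 was called higher in SSM3 without J110 replicate 3 and with library size only (0.37, edgeR adjusted p = 0.00314, where the alternatives reached 1).

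Class C proteins share only the J domain and serve single tasks. Of 24 tested, 11 were higher, 8 lower and 5 did not pass, a called share of 79.2% beside 77.9% of all genes, and 3 were called at 4-fold or more (12.5% beside 21.7%). Dnajc6 (auxilin), which uncoats clathrin-coated vesicles, had 0 counts in each J110 library and 57, 33 and 28 in SSM3. It was at least 14.1-fold higher in SSM3, taking 3 counts in each J110 library as the floor. Dnajc12, which binds aromatic amino acid hydroxylases, had 15, 14 and 13 counts in J110 and 106, 108 and 111 in SSM3, an 8.12-fold difference with little spread in either line (log2 fold change 3.02, standard error 0.20, edgeR adjusted p = 5.08e-10). Dnajc13, an endosome protein, went the other way, with 392, 428 and 352 counts in J110 and 75, 94 and 78 in SSM3, and was 4.48-fold lower in SSM3 (log2 fold change -2.16, standard error 0.12, edgeR adjusted p = 4.87e-11). Dnajc12 and Dnajc13, like the next 6 genes, were named by the rule that took members without overlap.

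Dnajc4 (1.53), Dnajc1 of the endoplasmic reticulum (0.90) and Dnajc21, which takes part in making the large ribosomal subunit (0.77), were higher in SSM3, with edgeR adjusted p = 2.13e-07, 2.6e-08 and 2.27e-06. Dnajc17 (-1.28), Dnajc15 of the mitochondrial inner membrane (-1.24) and Dnajc2 (-0.85), which joins HSPA14 at the ribosome, were lower, with edgeR adjusted p = 1.12e-05, 3.61e-07 and 6.73e-08. Dnajc27, at 1.54 ± 0.35 CPM in J110 and 4.81 ± 0.99 in SSM3 (SD, n = 3), was higher by 1.64 on the log2 scale (edgeR adjusted p = 0.00025). Dnajc8, a spliceosome protein and the class C member with the highest mean CPM over all libraries though in neither line alone, was at 140.2 to 163 CPM in J110 and 147 to 161 CPM in SSM3 and did not pass (0.04, edgeR adjusted p = 0.697), but did with library size only (0.21, edgeR adjusted p = 0.0223, where the alternatives ranged from 0.0223 to 1). The calls of Dnajc19, Dnajc24 and Dnajc7 were lost when a single library was left out, J110 replicate 1 or SSM3 replicate 1 for Dnajc19, replicate 2 of either line for Dnajc24 and J110 replicate 3 for Dnajc7.

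Of the 15 members that were not tested, Cct8l1, Dnajb3, Dnajb8, Dnajc5g, Hspb3 and Hspb9 had no count in any library, which allows a level up to the floor in each. Dnajc28 had 4, 10 and 4 counts in J110 and 12, 12 and 7 in SSM3, and Dnajb13 had 2, 0 and 2 against 3, 5 and 5. The lines overlapped for Dnajc28 and stood just apart for Dnajb13. Dnajb7, Dnajc5b and Hspb7 had counts in 1 library each.

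The genes that serve the chaperones were read from a list of 49 cofactors, of which 48 were tested. They were lower in SSM3 in 20 cases and higher in 17, and 11 did not pass, a called share of 77.1% beside 77.9% of all genes. Of 22 co-chaperones of HSP90, 7 were higher, 9 lower and 6 did not pass. Fkbp4 (FKBP52), an immunophilin that promotes steroid receptor activity, had 583, 497 and 481 counts in J110 and 1869, 2023 and 2107 in SSM3. It was 4.06-fold higher in SSM3 (log2 fold change 2.02, standard error 0.08, edgeR adjusted p = 4.21e-13). Its relative Fkbp5 (FKBP51), which restrains these receptors and is induced by glucocorticoids, had 734, 688 and 750 counts in J110 and 154, 200 and 154 in SSM3, 4.04-fold lower (log2 fold change -2.02, standard error 0.11, edgeR adjusted p = 6.29e-11). This pair of immunophilins thus differed between the lines in opposite directions, but each was named by the rule that took the largest changes in each direction. Rpap3, which couples HSP90 to the R2TP complex, had 138, 109 and 112 counts in J110 and 27, 20 and 29 in SSM3 (-2.15, edgeR adjusted p = 2.04e-08). Stip1 (HOP), which links HSP70 to HSP90, was higher (1.22) and Ahsa1, which stimulates the HSP90 ATPase, also (1.15), though 66.8% of the last 400 bases of Ahsa1 match a gene not analysed here. Ptges3 (p23), which stabilises the closed form of HSP90, was lower (-0.72), as was the kinase adaptor Cdc37 (-0.47), with edgeR adjusted p between 3.89e-10 and 9.96e-05 for these 4.

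**Figure D5:**
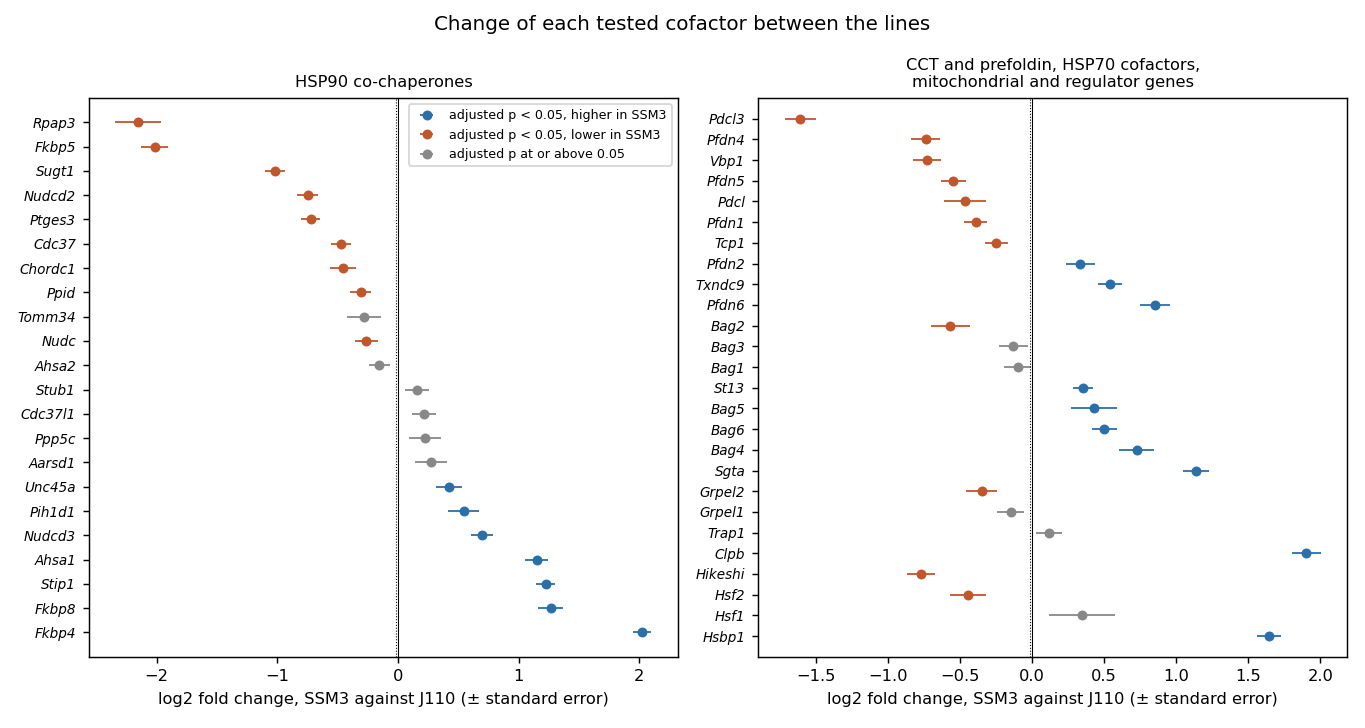
Log2 fold change, SSM3 against J110, of each of the 48 tested cofactors (points; bars are ± 1 standard error from edgeR), with co-chaperones of HSP90 on the left and the other classes on the right. Colours and lines are as for the members. Fkbp4 and Fkbp5 lie on opposite sides of 0 at about the same distance, and Clpb and Hsbp1 lie farthest to the right among the other classes.

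The cofactor list held 10 genes around the CCT ring, namely Tcp1, the subunits of prefoldin, which hands actin and tubulin chains to the ring, and the phosducin-like genes Pdcl, Pdcl3 and Txndc9. Of these 10, 3 were higher and 7 lower in SSM3, where 77.9% of all genes passed, 38.6% higher and 39.2% lower. Pdcl3, a phosducin-like partner of CCT, had 323, 326 and 297 counts in J110 and 101, 92 and 100 in SSM3 and was 3.05-fold lower (log2 fold change -1.61, standard error 0.11, edgeR adjusted p = 6.98e-10). Of 8 HSP70 cofactors 5 were higher and 1 lower, a called share of 75% near that of all genes. Of 4 mitochondrial cofactors, Clpb, a disaggregase, had 114, 116 and 120 counts in J110 and 375, 412 and 456 in SSM3 and was 3.74-fold higher (log2 fold change 1.90, standard error 0.10, edgeR adjusted p = 2.61e-11).

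Of the regulators, Hsf1 had 108, 142 and 82 counts in J110 and 154, 159 and 83 in SSM3. The lines overlapped and Hsf1 did not pass the threshold (log2 fold change 0.35, standard error 0.23, edgeR adjusted p = 0.182). It was called higher in SSM3 without SSM3 replicate 3, at 0.63 (edgeR adjusted p = 0.00119, where the alternatives ranged from 0.00119 to 0.837), and with genes kept from 1 count in any library on, at 0.37 (edgeR adjusted p = 0.0272). Hsf2, a related factor, was lower in SSM3, with 154, 143 and 157 counts in J110 and 96, 110 and 110 in SSM3 (-0.44, edgeR adjusted p = 0.00457), and its call was lost with library size only (-0.27, edgeR adjusted p = 0.065, where the alternatives reached 0.853). Hsbp1, which binds HSF1, was at 105 to 117 CPM in J110 and 313, 349 and 377 CPM in SSM3 and was 3.13-fold higher (log2 fold change 1.65, standard error 0.08, edgeR adjusted p = 2.47e-11). Hikeshi, which carries HSP70 into the nucleus, was lower (-0.77, edgeR adjusted p = 1.42e-06). Hsf4 had at most 4 counts in any library and was not tested. Transcript counts of a factor do not measure its activity.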

How the data were processed

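RNA from 3 biological replicates each of J110 and SSM3 was sequenced as single end 3′ reads. The authors trimmed the reads with cutadapt (2.1), leaving out those of low quality, mapped to mm10 with HISAT2 (2.0.4), counted per gene with featureCounts of Subread (2.0.0) and deposited the raw counts, with no normalisation. The strand setting, and what was done with reads on overlapping genes, are not given in the sources used here. Identifiers were matched to GENCODE M21 on GRCm38 (52403 of 52636, 99.6%).

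Low counts were removed with filterByExpr, and after TMM scaling the rest were tested with edgeR's quasi-likelihood test (4.0.16, in R 4.3.3) at an adjusted p of 0.05, SSM3 against J110, on 12284 genes. CPM used total counts multiplied by TMM factors. The standard error was the log2 fold change divided by the square root of the F statistic. Counting intervals are exact at 95%. Replicates differed by more than sampling noise (chi-square per degree of freedom 2.21 to 5.62), and none was a copy of another. Exon overlaps were found with bedtools (2.31.1) and copies of 3′ ends with blastn (2.17.0). Counts were simulated for the 12284 genes of this comparison with a common dispersion. There, 86 of 100 genes changed 2-fold and 99 of 100 changed 4-fold were recovered, and 10 of 195 genes called were unchanged. No other gene was changed, whereas 77.9% of genes passed in the data, so these rates need not hold for the data. Alternatives covered DESeq2 (1.42.0), limma-voom (limma 3.58.1), other scalings, filters and thresholds, a replicate block and leaving out each library.

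The rule on symbols that set the members, the list of 49 cofactors and the marker lists were chosen with earlier results of these data known. Named genes are all tested members outside the Dnajb and Dnajc classes, and in each of these the member with the highest mean CPM and up to 4 in each direction with the largest change among called members with at least 10 CPM and no overlap. Of the cofactors they are the regulators, Tcp1 and up to 3 in each direction by the same rule. Other genes, among them Dnajb5, Dnajb12, Dnajb14, Dnajc6, Dnajc27, Dnajc19, Dnajc24, Dnajc7, Stip1, Ahsa1, Ptges3, Cdc37, Bag3, Cryab, Cct6a and the copies of Hspa8, were named after their values were seen. Protein sequences were not used here, and promoters were read for 62 of 77 members. An item of the study's background, and the result that needs it, is not reported here.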

Additional observations from a re-analysis of the deposited data

How the results depend on the processing

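The counts of members (23 higher and 25 lower in SSM3) and of cofactors (17 and 20) stayed within 1.5 times under DESeq2, limma-voom, DESeq2 size factors, library size only, both other filters, a threshold of 0.01 and protein-coding genes only. Leaving out each library in turn gave 22 to 24 members higher and 23 to 25 lower, and 17 to 18 cofactors higher and 19 to 20 lower. Testing for a fold change above 1.5 with glmTreat left 13 members higher and 13 lower, and 8 cofactors higher and 9 lower. Among the 39 tested members that share no exon, 17 were higher and 14 lower. With library size only, members were 30 higher and 20 lower, cofactors 22 higher and 14 lower, and the median log2 fold change of the members was 0.14 in place of -0.04, beside a shift of all genes to 0.16. With genes kept from 1 count in any library on, the median was 0.06. The share of counts on members differed by 0.0985 percentage points, higher in SSM3, and by -0.108 without the ribosomal RNA locus. Of the members with no call, the sign turned with library size only for 5, Cct8 (0.13), Dnaja1 (0.074), Dnajb12 (0.058), Hsph1 (0.15) and Hspd1 (0.17), the last of which was then called, and so did that of the cofactors Bag3 (0.046), Bag1 (0.077), Ahsa2 (0.021) and Grpel1 (0.027), none of them then called. It also turned for Hspd1 with genes kept from 1 count on (0.016). Without each library in turn, Hsph1 ranged from -0.087 to 0.017 (positive without SSM3 replicate 3), Hspd1 from -0.029 to 0.037 (positive without J110 replicate 3 or SSM3 replicate 1) and Dnajc8 from -0.023 to 0.092 (negative without J110 replicate 1). The cause was not tested. Over 54 named genes and all alternatives, 816 values kept direction and call, 30 lost the call, 5 gained it and 9 turned. Counting Cct6a among the members (23 higher, 26 lower) and adding the copies of Hspa8 to its counts were alternatives chosen after seeing the data.

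Same-numbered libraries had correlated deviations of 0.012, 0.016 and 0.027, all under 0.1, so the replicate numbers were not taken to pair the samples. With the replicate number as a block, 23 members were higher and 25 lower, and 18 cofactors higher and 20 lower. Every sample correlated best with its own number, by a small margin.

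At this depth a gene under about 0.6 CPM was not detectable, which covers most of the 15 untested members and limits the ratios of Hspa1a, Hspb8 and Dnajc6. The 3′ reads cannot place Hspa8 against its copies or separate genes that share exons, and 1 line per group leaves line, tumour and culture together.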
